A study of Mus musculus with 24 samples.

Results

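The developmental patterning transcription factors of 15 families (Lhx, Dlx, Zic, Meis, Pbx, Tbx, Emx, Otx, Nkx, Sine oculis (Six3 and relatives), Dmrt, Ebf, Pax, Sim and Fox) were followed across cultured mouse cortical neurons with and without the histone variant H2BE. They were chosen by gene symbol: every protein-coding gene with one of these family names followed by a number, except Lhx2, Lhx6 and Foxp2. The symbols alone fixed the members, but the families were selected on earlier results of these data, so counts over them are descriptions. The rule found 118 of the 45792 genes in the table. Of these, 59 had enough counts to be tested, 45 had counts too low to test, and 14 had no count in any library.

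The neurons were primary cortical neurons isolated from E16.5 mouse embryos and kept for 12 days in culture. They were H2BE knockout (KO), with mCherry knocked in per the genotype label, or wild type (WT). Each genotype was left as control, or given BDNF for 30 min or for 24 h before collection, with 4 libraries of each kind and 24 in all. The study's design text calls them biological replicates, and each culture code appears on 1 library of each condition. The design asks which transcripts depend on H2BE and which respond to BDNF, brain-derived neurotrophic factor, a secreted protein that activates the receptor TrkB. The sources used here do not give the strain, the sex or the part of the H2be locus that the KO allele lacks.

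Patterning factors bind DNA and give regions of the embryo, and later types of neuron, their identity. In the forebrain, Emx1 and Emx2 mark the dorsal telencephalon that makes glutamatergic neurons, and Dlx genes act in the ventral telencephalon that makes GABAergic interneurons. Meis and Pbx proteins, homeodomain proteins of the TALE class, bind DNA together and with other homeodomain proteins, while LIM homeodomain (Lhx) proteins act through LDB adaptor proteins. Many of these genes stay on in restricted sets of mature neurons.

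Libraries held 19780486 to 62135270 counts. Levels are CPM, a gene's counts scaled to one common library size, with TMM factors of edgeR between libraries, and are also given per kilobase of exon where genes are compared. Tests were edgeR's quasi-likelihood test over the 16777 genes with enough counts, and "called" means a Benjamini-Hochberg adjusted p under 0.05. Errors on log2 fold changes are standard errors. H2be, listed as Hist2h2be, had 49.96 to 63.1 CPM in 11 of 12 KO libraries and 3.15 to 5.83 CPM in WT libraries, with log2 fold changes of 3.46 in control, 3.81 at 30 min and 3.82 at 24 h. A higher level of the targeted gene in libraries labelled KO goes against that label taken alone. The sources used here do not say which part of the locus these counts come from, so they separate the genotypes but do not check the deletion. KO and WT are the labels' names throughout, and every direction below is between libraries so labelled.

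The library labelled KO 24 h replicate 4 does not match the others that carry its culture code. It had 21.2 CPM of Hist2h2be, 66.3 CPM of the Y-linked Ddx3y and 145 CPM of Xist, whereas the other 2 libraries with that code had 0.193 and 0.904 CPM of Ddx3y and 423 and 426 CPM of Xist. Whether it holds a mixture or another culture was not tested. The 3 libraries of KO replicate 4 held 10.9% to 21.7% mitochondrial counts and those of KO replicate 3 held 7.52% to 9.34%, against 4.18% to 6.40% in WT libraries, and KO 30 min replicate 3 had the fewest counts. Counts of calls are given with and without KO replicate 4 and KO 30 min replicate 3, and values where a call named below is lost without them.

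Most of the factors were expressed at low levels in these cultures, and a few at high ones. Of the 59 tested factors, 19 reached a mean of 10 CPM in at least 1 group, 23 lay between 1 and 10 CPM, and 17 stayed below 1 CPM in every group. Per kilobase of exon, Foxk2, a broadly expressed forkhead factor, was highest in control cultures, at 36.1 CPM per kb in KO and 41.7 CPM per kb in WT. Dlx1 had 15.6 CPM per kb in KO and 10.9 CPM per kb in WT. Meis2 had 7.37 CPM per kb in KO and 11.7 CPM per kb in WT, and Emx1 had 3.45 CPM per kb in KO and 9.16 CPM per kb in WT. Dlx1 lay above Meis2 in KO and below it in WT, but in WT Dlx1 differed widely between cultures (59.1 ± 40.1 CPM, SD, n = 4), so that the order in WT did not differ beyond this spread.

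**Figure D1:**
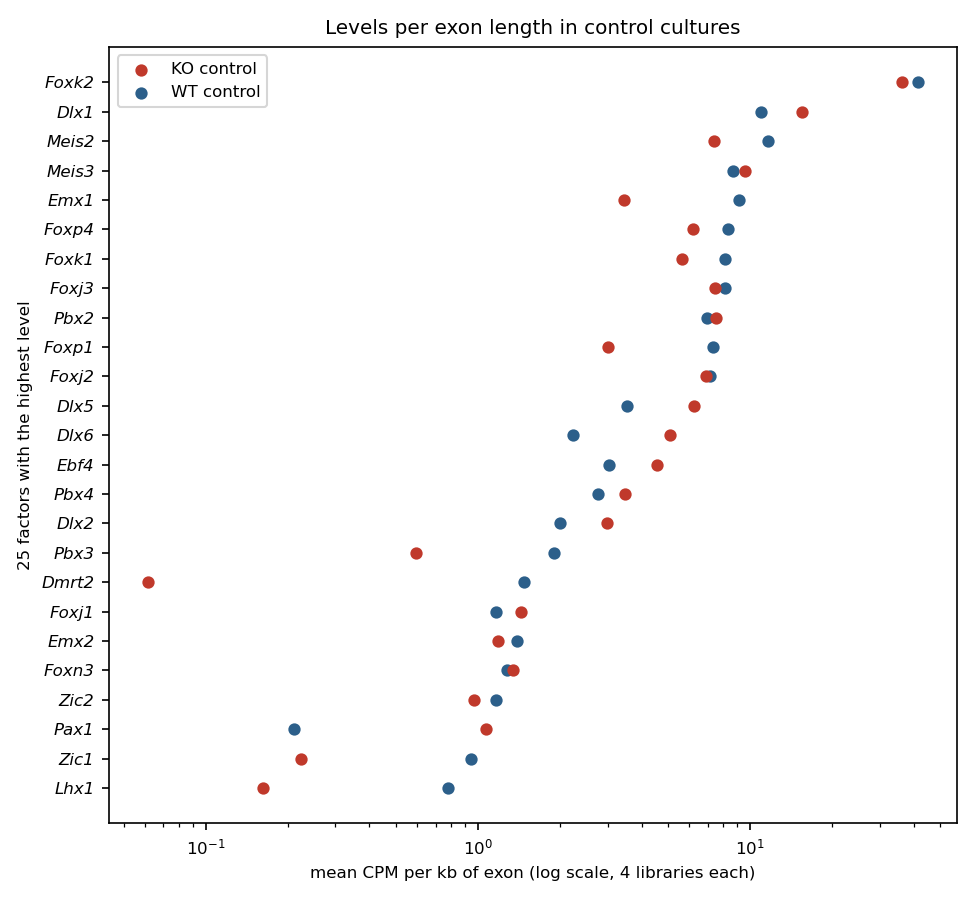
Mean level in control cultures, in CPM per kb of exon on a log scale, of the 25 reported factors with the highest level in either genotype (red, KO; blue, WT; means of 4 libraries each). Foxk2 leads in both genotypes, and Emx1, Foxp1, Pbx3 and Dmrt2 lie further left in KO than in WT.

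The factors that were not tested were near or at the limit of detection. The highest of them, Lhx4, had 133 counts summed over all 24 libraries. The 14 without a count included Foxa2, Foxb1, Foxd3, Foxd4, Foxe3, Foxi1, Foxi2, Foxi3, Foxl2, Foxr1, Nkx2-4, Nkx2-6 and Six6, and 0 counts over all libraries allow a level of up to 0.00296 CPM each (3 counts, counting error only). By family, 15 of 39 Fox, 2 of 14 Nkx, 6 of 13 Tbx, 3 of 9 Pax, 3 of 6 Sine oculis and 3 of 6 Lhx genes were tested, as were all Meis, Pbx, Ebf, Zic, Emx and Dmrt genes.

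Some of these factors were called between neurons labelled KO and WT, at shares near those of all genes. More were called lower in KO than higher in control and at 30 min of BDNF, and as many lower as higher at 24 h. In control cultures, 5 factors were called higher and 11 lower in KO, which is 16 of 59, or 27.1%, against 21.4% of all genes tested. At 30 min of BDNF, 7 were higher and 16 lower, which is 39.0%, against 28.4% of all genes. At 24 h, 5 were higher and 5 lower, which is 16.9%, against 13.3% of all genes. Of all genes tested, 1903 were called higher and 1689 lower in KO in control, and 2452 higher and 2308 lower at 30 min. At 24 h, 1189 were higher and 1034 lower. The split of the factors was not tested against that of all genes. The median log2 fold change of the tested factors was -0.24 in control, -0.21 at 30 min and -0.33 at 24 h, against 0.03, 0.02 and 0.00 for all genes, and stayed the same with Ebf2, which had no count in some KO groups, set at its bound.

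Ebf2, Foxp1 and Otx1 were among the 4 of 59 tested factors lower in KO in all 3 conditions, as were 4.2% of all genes tested. Dlx6, Ebf4 and Tbx2 were higher in KO in all 3 conditions, as were 5.11% of all genes. By their codes, the 3 comparisons set the same 4 KO cultures against the same 4 WT cultures. Agreement between conditions is therefore not independent evidence. In all, 26 of the 59 tested factors were called in at least 1 of the 3 comparisons of KO with WT, against 5632 of 16777 genes, or 33.6%. Without the library labelled KO 24 h replicate 4, 6 factors were higher and 7 lower at 24 h, against 18.4% of all genes. Without KO replicate 4 in every condition and KO 30 min replicate 3, 8 factors were higher and 11 lower in control, against 30.6% of all genes. In the same fit 5 were higher and 10 lower at 30 min, against 27.4%, and 9 higher and 13 lower at 24 h, against 31.2%. Among the cultures whose control library carries the number 2 in its description (3 KO and 2 WT cultures), 3 factors were called in control, against 3.45% of all genes, 4 at 30 min, against 5.51%, and 0 at 24 h, against 0.0634%. The sources used here do not say what that number stands for. In that smaller fit, 53 of the 60 calls made over all 9 comparisons were lost. The cultures with number 1, which include 1 KO culture, were not fitted alone.

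**Figure D2:**
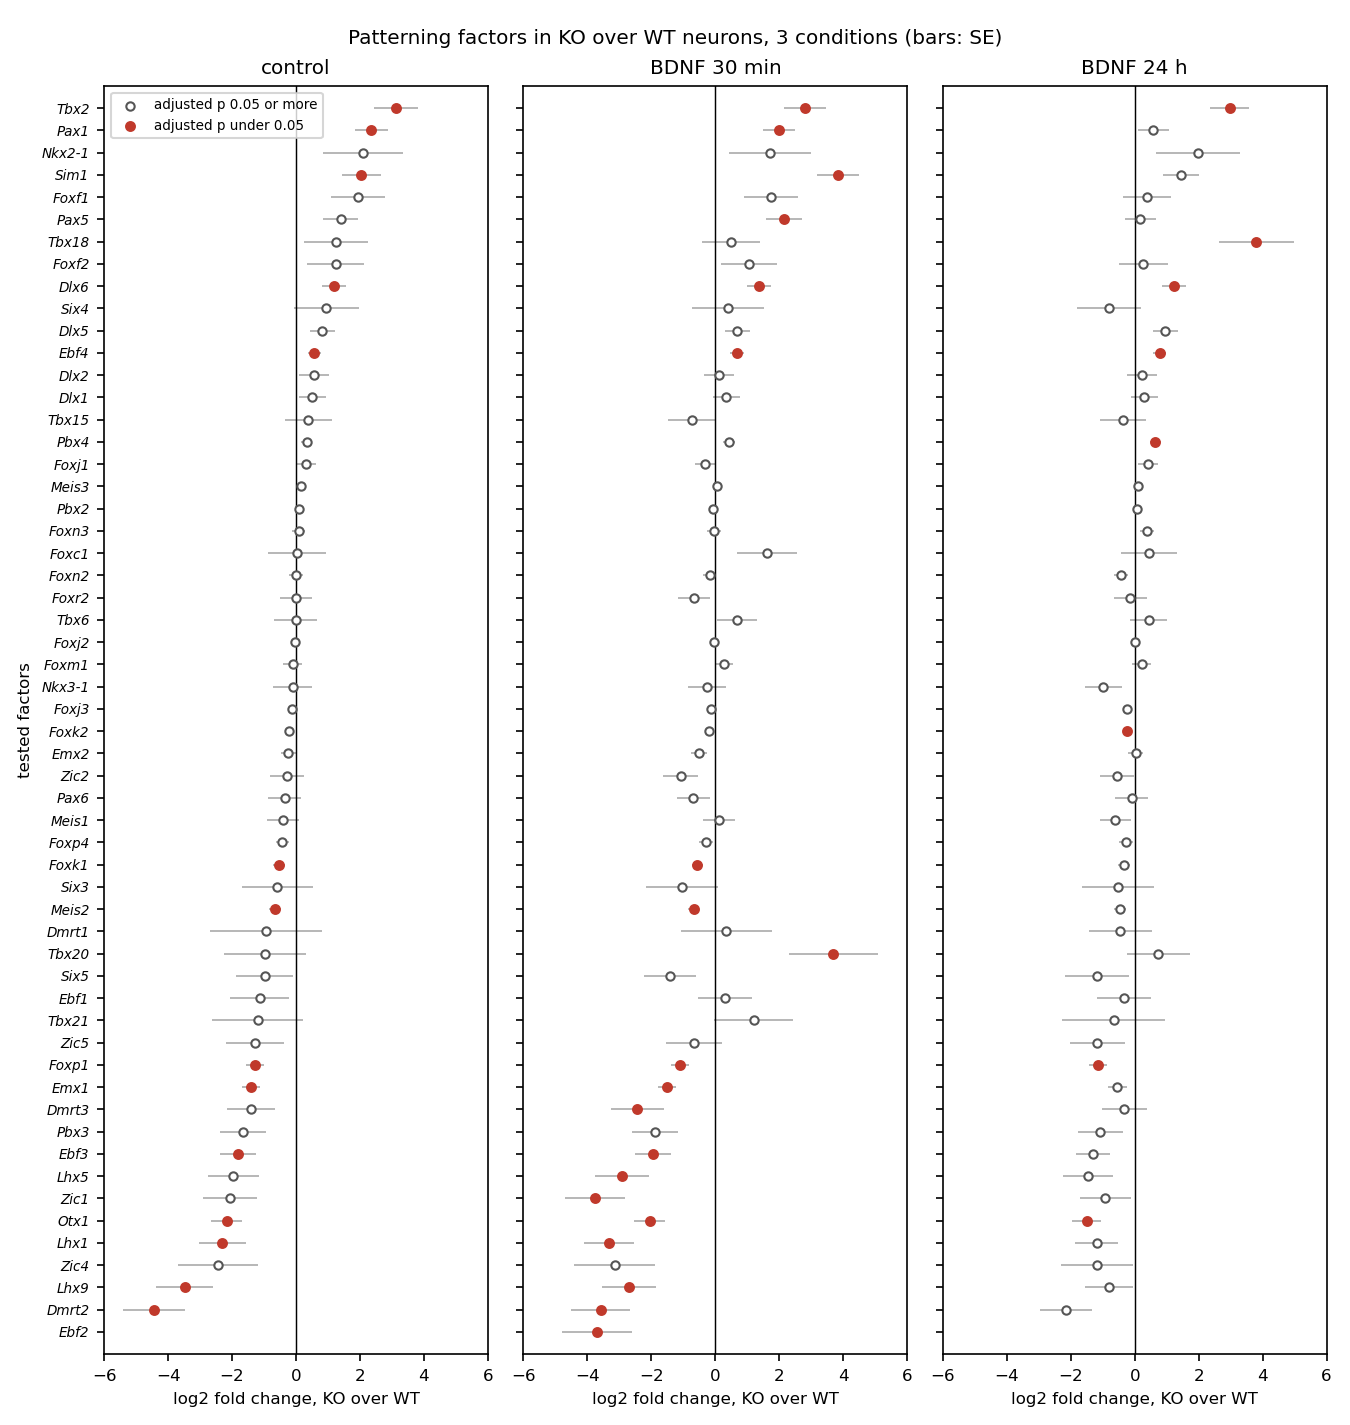
Log2 fold change, KO over WT, of the tested factors reported here in control, BDNF 30 min and BDNF 24 h cultures (points, fitted values from 4 libraries a group; bars, standard errors; filled points, adjusted p under 0.05). Ebf2 is left out in control and at 24 h, where all KO libraries had 0 counts. Filled points lie on both sides of 0 in each condition, with Foxp1 and Otx1 left of 0 and Dlx6, Ebf4 and Tbx2 right of 0 in all 3.

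Meis2, a TALE factor of striatal and olfactory neurons that can act with Pbx proteins, was lower in KO in control and at 30 min. It had 102, 97.4, 76.6 and 78.6 CPM in KO control cultures, against 149, 165, 113 and 135 CPM in WT control cultures. It had 94, 94.3, 72.2 and 73.2 CPM in KO cultures at 30 min, against 146, 158, 104 and 128 CPM in WT cultures at 30 min, and neither pair of groups overlapped. At 24 h, Meis2 had 76.1, 76.1, 55.7 and 109 CPM in KO cultures, against 116, 127, 82.3 and 109 CPM in WT cultures, and the groups overlapped through the library labelled KO 24 h replicate 4. For Meis2, log2 fold changes were -0.66 ± 0.18, adjusted p = 0.00967 in control, -0.68 ± 0.18, adjusted p = 0.00614 at 30 min and -0.46 ± 0.18, adjusted p = 0.0907 at 24 h. Without that library the 24 h value was -0.66 (adjusted p = 0.0106). The 30 min call was lost without KO replicate 4 and KO 30 min replicate 3 (adjusted p = 0.0541).

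Among other TALE factors the direction varied by member. Pbx3 averaged 3.62 ± 2.73 CPM in KO control and 11.7 ± 6.59 CPM in WT control cultures, with a log2 fold change of -1.66 ± 0.72, adjusted p = 0.106. WT replicate 3 of each condition, at up to 3.33 CPM, lay within the KO range. Pbx4 had 9.32, 8.76, 9.92 and 6.17 CPM in KO cultures at 24 h, against 5.6, 4.85, 5.26 and 6.17 CPM in WT cultures at 24 h, and was called higher in KO (0.64 ± 0.18, adjusted p = 0.0185), although replicate 4 of both genotypes had the same rounded level. That call was lost without KO 24 h replicate 1, 2 or 3 or WT 24 h replicate 2 or 3 (adjusted p 0.0536 to 0.078). Pbx2 and Meis3, both above 20 CPM in every group, were called in no comparison, with log2 fold changes of 0.10 and 0.14 in control. Meis1 was not called either, at -0.42 in control.

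Foxp1, a forkhead repressor of striatal and cortical projection neurons, was lower in KO in all 3 conditions. It had 42.1, 51.5, 42.5 and 29.6 CPM in KO control cultures, against 94.8, 110, 134 and 65.5 CPM in WT control cultures. At 30 min, Foxp1 had 40.3, 49.4, 59.8 and 31.6 CPM in KO cultures, against 89, 104, 124 and 70 CPM in WT cultures. The groups did not overlap in either condition. At 24 h, Foxp1 had 38.7, 49.8, 46.7 and 106 CPM in KO cultures, against 126, 138, 182 and 91.9 CPM in WT cultures, where the library labelled KO 24 h replicate 4 stood above WT replicate 4. Log2 fold changes of Foxp1 were -1.28 ± 0.29, adjusted p = 0.00237 in control, -1.10 ± 0.29, adjusted p = 0.00604 at 30 min and -1.15 ± 0.28, adjusted p = 0.00913 at 24 h. Without the library labelled KO 24 h replicate 4 the 24 h value was -1.58 (adjusted p = 0.00018).

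Promoter windows (250 bases before to 50 after a gene's start, 300 in all; RefSeq, GRCm38.p6) were found for 82 of the 118 factors. They were searched on both strands for the homeodomain core TAATTA, the Meis site TGACAG, the Pbx site TGATTGAT, the forkhead site TGTTTAC and the cyclic AMP response element TGACGTCA. These motifs were held by 5.29%, 19.2%, 0.746%, 3.65% and 1.79% of all 32851 windows of this length. Among the 99 windows of the factors they were held by 7.07%, 22.2%, 1.01%, 1.01% and 2.02%. Foxp1 has 3 windows, and 1 of them is shown because it holds matches to both the homeodomain core and the Meis site, in capitals (chr6:99266466-99266765, minus strand). A match to these letters is a description of the sequence and was not tested as a binding site.
Foxp1: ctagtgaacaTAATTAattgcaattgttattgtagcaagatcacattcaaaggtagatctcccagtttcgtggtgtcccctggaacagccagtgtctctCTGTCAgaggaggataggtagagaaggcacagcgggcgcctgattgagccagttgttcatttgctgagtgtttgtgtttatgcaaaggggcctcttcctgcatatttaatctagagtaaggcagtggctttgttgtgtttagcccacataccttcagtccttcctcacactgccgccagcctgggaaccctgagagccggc

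Other forkhead factors reported here differed less between the genotypes. Foxk1, a broadly expressed relative of Foxk2, was lower in control (-0.53 ± 0.18, adjusted p = 0.034) and at 30 min (-0.56 ± 0.18, adjusted p = 0.0196), and no groups overlapped. The control call was lost without KO control replicate 3 or 4 or WT control replicate 1, 2 or 3 (adjusted p 0.0589 to 0.118), and the 30 min call without KO 30 min replicate 4 (adjusted p 0.0517). Foxk2 had 213, 206, 192 and 217 CPM in KO cultures at 24 h, against 242, 252, 245 and 250 CPM in WT cultures at 24 h, a small fall (-0.26 ± 0.09, adjusted p = 0.0483) that was lost without KO 24 h replicate 1, 2 or 3 or WT 24 h replicate 1, 2, 3 or 4 (adjusted p 0.0928 to 0.165). Foxj2, Foxj3, Foxn2, Foxn3 and Foxp4 were not called between the genotypes.

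Emx1, a marker of the dorsal telencephalon and its glutamatergic neurons, was lower in KO before and shortly after BDNF. It had 9.34, 8.77, 5.23 and 6.83 CPM in KO control cultures, against 15.4, 19.3, 29.4 and 16 CPM in WT control cultures. At 30 min, Emx1 had 6.85, 8.38, 5.56 and 4.88 CPM in KO cultures, against 9.78, 22.9, 24 and 17.4 CPM in WT cultures, and the groups overlapped in neither condition. Log2 fold changes of Emx1 were -1.40 ± 0.29, adjusted p = 0.0012 in control and -1.52 ± 0.29, adjusted p = 0.000459 at 30 min, and both calls held in all alternatives tried. At 24 h, Emx1 had 4.59, 3.88, 5.23 and 6.91 CPM in KO cultures, against 4.51, 10.3, 8.36 and 6.92 CPM in WT cultures, where the groups overlapped and the difference was not called (-0.54 ± 0.29, adjusted p = 0.237). Emx2, its paralogue, was not called, with a log2 fold change of -0.24 in control and -0.51 at 30 min (adjusted p = 0.128). The promoter window of Emx1 (chr6:85187681-85187980, plus strand) is shown as that of a factor that was lower in KO and fell with BDNF in WT; it holds none of the 5 motifs, so no base is in capitals.
Emx1: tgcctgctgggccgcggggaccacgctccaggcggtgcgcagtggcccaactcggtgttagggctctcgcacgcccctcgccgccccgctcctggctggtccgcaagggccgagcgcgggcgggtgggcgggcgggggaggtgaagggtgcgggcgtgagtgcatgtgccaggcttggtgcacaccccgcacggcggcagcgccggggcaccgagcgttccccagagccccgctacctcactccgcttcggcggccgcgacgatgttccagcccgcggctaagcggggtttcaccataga

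Otx1, a homeobox factor of the forebrain and of deep-layer cortical neurons, was 2.85- to 4.5-fold lower in KO. It had 0.991, 1.14, 0.747 and 0.481 CPM in KO control cultures, against 3.43, 4.13, 5.19 and 2.82 CPM in WT control cultures. At 30 min, Otx1 had 0.634, 0.508, 1.96 and 0.452 CPM in KO cultures, against 2.97, 4.12, 4.74 and 2.27 CPM in WT cultures. The KO libraries were all below the WT libraries in both conditions. At 24 h, Otx1 had 0.65, 0.403, 0.403 and 1.98 CPM in KO cultures, against 2.23, 3.04, 2.95 and 1.76 CPM in WT cultures, with the library labelled KO 24 h replicate 4 above WT replicate 4. For Otx1, log2 fold changes were -2.17 ± 0.48, adjusted p = 0.00209 in control, -2.06 ± 0.48, adjusted p = 0.00273 at 30 min and -1.51 ± 0.47, adjusted p = 0.0336 at 24 h. The 24 h call was lost without KO 24 h replicate 1, 2 or 3 or WT 24 h replicate 1, 2 or 3 (adjusted p 0.0584 to 0.115), and without the library labelled KO 24 h replicate 4 the value was -2.35 (adjusted p = 0.000665).

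**Figure D3:**
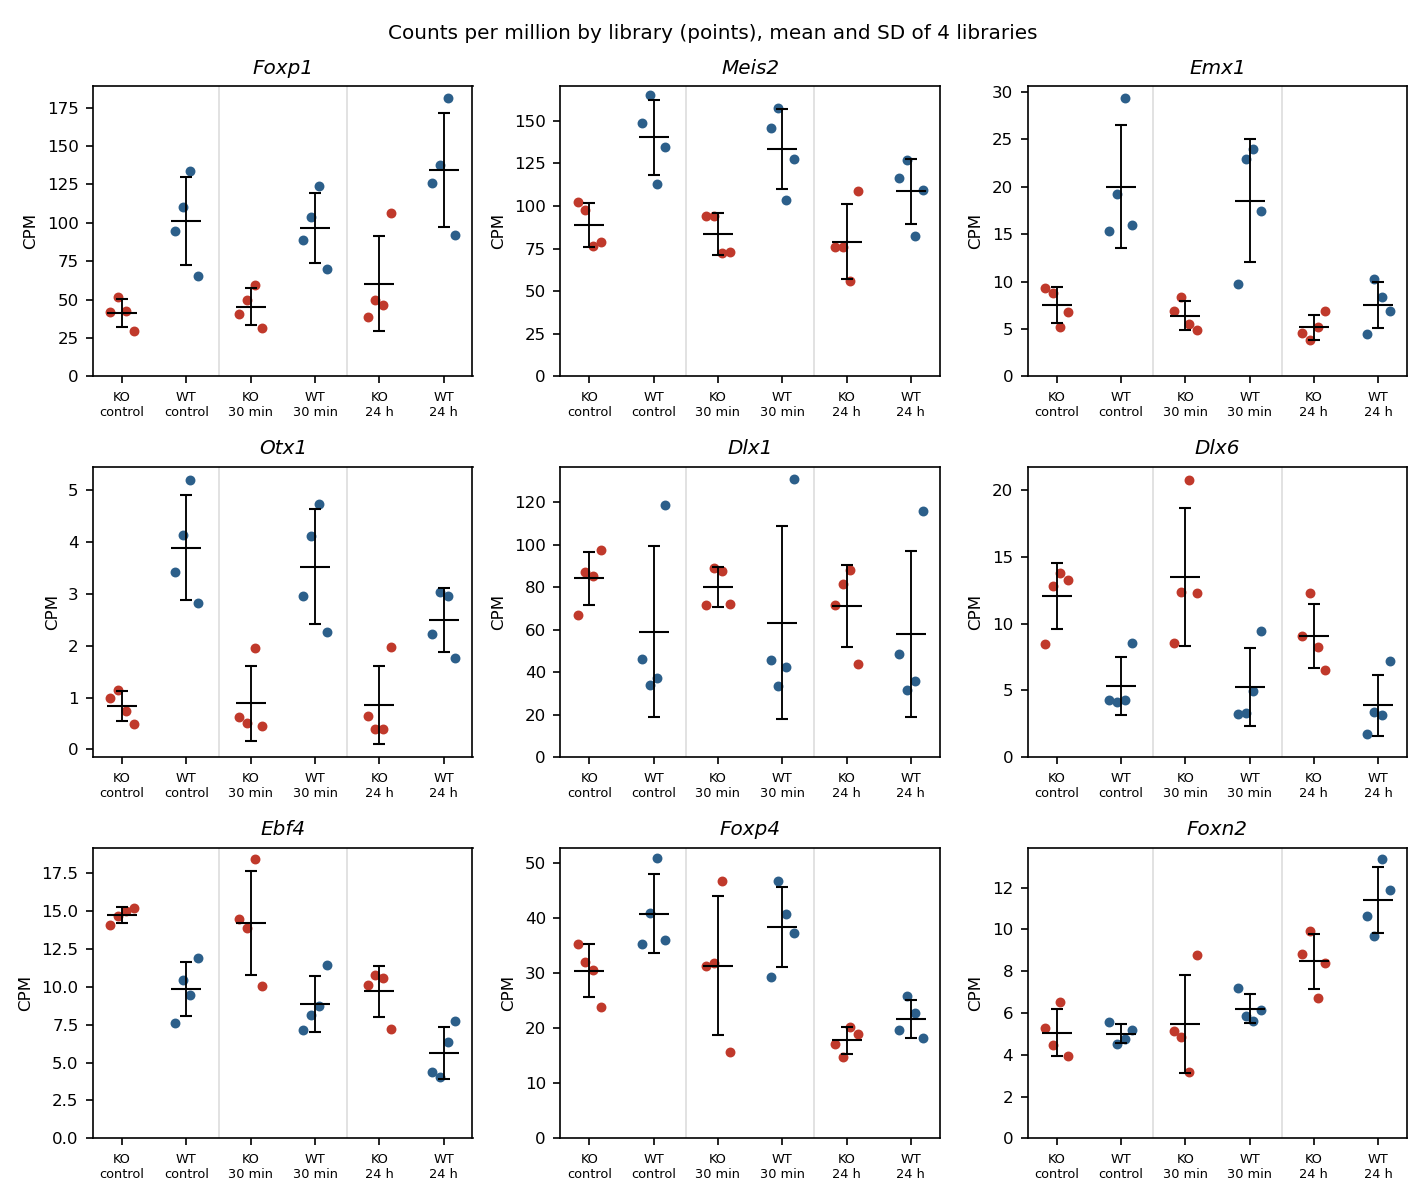
CPM of 9 factors in every library (points), with mean and SD of 4 libraries, for KO (red) and WT (blue) in control, at 30 min and at 24 h of BDNF. Foxp1, Meis2 and Otx1 have 1 high KO library at 24 h, Dlx1 and Dlx6 have 1 high WT library (replicate 4) in each condition, and Foxp4 is lower and Foxn2 higher at 24 h than in control in both genotypes.

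The LIM homeodomain factors Lhx1, Lhx5 and Lhx9, known from early head and thalamic patterning, were near the limit of detection in most KO libraries and low in WT. Lhx1 had 0.283, 0.19, 1.97 and 0.193 CPM in KO control cultures, against 3.43, 3.34, 2.99 and 2.92 CPM in WT control cultures. At 30 min Lhx1 had 0.373, 0.338, 0.824 and 0 CPM in KO cultures, against 1.9, 3.59, 5.46 and 4.14 CPM in WT cultures. No KO library reached the WT range in either condition, and KO control replicate 3 was the highest KO library. At 24 h Lhx1 had 0.306, 0.161, 1.47 and 1.88 CPM in KO cultures, against 1.83, 1.96, 2.85 and 2.06 CPM in WT cultures. The groups overlapped there through the library labelled KO 24 h replicate 4. Log2 fold changes of Lhx1 were -2.30 ± 0.72, adjusted p = 0.0256 in control, -3.33 ± 0.77, adjusted p = 0.00238 at 30 min and -1.20 ± 0.69, adjusted p = 0.282 at 24 h. The control call was lost without KO control replicate 1, 2 or 4 or WT control replicate 1 (adjusted p 0.051 to 0.0751).

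Lhx5, known from Cajal-Retzius neurons, had 0.187, 0.203, 0.824 and 0 CPM in KO cultures at 30 min, against 1.62, 2.22, 2.37 and 2.33 CPM in WT cultures at 30 min. It was lower at 30 min (-2.92 ± 0.84, adjusted p = 0.0112), with no overlap, and was not called in control (-1.96 ± 0.80, adjusted p = 0.0829) or at 24 h (-1.47 ± 0.78, adjusted p = 0.241). Lhx9 had 0.236, 0, 0.136 and 0 CPM in KO control cultures, against 0.481, 0.945, 1.07 and 1.83 CPM in WT control cultures. Summed over libraries, that is 14 counts in KO and 174 in WT, a ratio of levels of 0.0805 (95% interval 0.0431 to 0.139, counting error only). Its log2 fold changes were -3.48 ± 0.88, adjusted p = 0.0064 in control and -2.71 ± 0.84, adjusted p = 0.0183 at 30 min, and -0.81 ± 0.74, adjusted p = 0.544 at 24 h, where the groups overlapped. The 30 min call was lost without KO replicate 4 and KO 30 min replicate 3 (adjusted p = 0.0696).

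The Ebf family, helix-loop-helix factors of differentiating neurons, split by member. Ebf3 had 1.27, 0.412, 3.26 and 0.0963 CPM in KO control cultures, against 5.26, 4.42, 4.93 and 3.27 CPM in WT control cultures, and KO replicate 3 just missed the WT range. At 30 min, Ebf3 had 1.007, 0.6091, 1.854 and 1.355 CPM in KO cultures, against 3.784, 5.603, 4.961 and 3.698 CPM in WT cultures. Ebf3 was lower in control (-1.83 ± 0.56, adjusted p = 0.0234) and at 30 min (-1.96 ± 0.57, adjusted p = 0.0129), and was -1.30 ± 0.54, adjusted p = 0.118 at 24 h, with no overlap in any condition. The control call was lost without KO control replicate 2 or WT control replicate 1 (adjusted p 0.0544 to 0.0698). Ebf2, named after its values were seen, had 0 counts in KO control libraries and 43 in WT, which makes it at least 14.3-fold lower (floor of 3 counts over the group). At 24 h it had 0 counts in KO and 39 in WT, at least 15.6-fold lower, and at 30 min 3 counts in KO and 56 in WT, a ratio of 0.0684 (95% interval 0.0137 to 0.21, counting error only). Its adjusted p was 0.0041, 0.0179 and 0.0065 in control, at 30 min and at 24 h. The 30 min call was lost without KO replicate 4 and KO 30 min replicate 3 (adjusted p = 0.0719). Ebf1 was not called.

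Ebf4 went the other way. It had 14.1, 14.7, 15 and 15.2 CPM in KO control cultures, against 7.61, 10.4, 9.49 and 11.9 CPM in WT control cultures, and the groups did not overlap. At 30 min, Ebf4 had 14.5, 13.9, 18.4 and 10 CPM in KO cultures, against 7.17, 8.15, 8.74 and 11.5 CPM in WT cultures. At 24 h, Ebf4 had 10.1, 10.8, 10.6 and 7.24 CPM in KO cultures, against 4.41, 4.06, 6.33 and 7.73 CPM in WT cultures, and in both later conditions KO replicate 4 lay within the WT range. Log2 fold changes of Ebf4 were 0.58 ± 0.20, adjusted p = 0.0464 in control, 0.68 ± 0.20, adjusted p = 0.0162 at 30 min and 0.78 ± 0.21, adjusted p = 0.0144 at 24 h. The control call, close to the threshold, was lost without KO control replicate 1, 2, 3 or 4 or WT control replicate 1, 2 or 3 (adjusted p 0.0748 to 0.154). The 30 min call was lost without KO 30 min replicate 3 or WT 30 min replicate 1 or 2 (adjusted p 0.0543 to 0.0678), and the 24 h call without KO 24 h replicate 2 or 3 or WT 24 h replicate 1 or 2 (adjusted p 0.0513 to 0.0668). The promoter window of Ebf4 (chr2:130295689-130295988, plus strand), shown beside that of Foxp1 as one of a factor higher in KO in all 3 conditions, holds none of the 5 motifs.
Ebf4: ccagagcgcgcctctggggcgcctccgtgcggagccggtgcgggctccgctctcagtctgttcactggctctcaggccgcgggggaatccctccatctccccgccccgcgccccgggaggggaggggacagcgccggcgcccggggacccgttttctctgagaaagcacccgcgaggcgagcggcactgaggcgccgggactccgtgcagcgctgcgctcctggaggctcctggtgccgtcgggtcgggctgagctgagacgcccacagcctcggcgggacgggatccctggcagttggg

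Of the Zic factors, zinc finger proteins of the dorsal midline and septum, Zic1 was called lower in KO at 30 min and in neither other condition. Zic1 had 0.448, 0.643, 0 and 0.542 CPM in KO cultures at 30 min, against 2.3, 11.5, 2.02 and 8.36 CPM in WT cultures at 30 min, with no overlap and a log2 fold change of -3.77 ± 0.94, adjusted p = 0.00419. In control it had 1.16, 1.06, 2.79 and 0.0963 CPM in KO control cultures, against 2.62, 11.6, 2.29 and 5.03 CPM in WT control cultures, and the groups overlapped (-2.06 ± 0.84, adjusted p = 0.0858). At 24 h the library labelled KO 24 h replicate 4, at 8.11 CPM, lay within the WT range, and the log2 fold change was -0.92 ± 0.80, adjusted p = 0.512. WT cultures themselves varied, with WT replicate 2 highest in each condition. Zic2, Zic4 and Zic5 were not called.

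Dmrt2, a DM-domain factor known from somite patterning, was lower in KO at a low level. It had 0.0472, 0.254, 0.272 and 0 CPM in KO control cultures, against 4.51, 4.55, 2.15 and 2.63 CPM in WT control cultures. At 30 min, Dmrt2 had 0.0746, 0.0677, 0 and 1.18 CPM in KO cultures, against 5.02, 4.12, 2.29 and 2.23 CPM in WT cultures. At 24 h, Dmrt2 had 0.23, 0.121, 0.0575 and 1.76 CPM in KO cultures, against 2.26, 3.34, 1.95 and 2.52 CPM in WT cultures. No groups overlapped, and KO replicate 4 stood apart from the other KO libraries at 30 min and 24 h. Log2 fold changes of Dmrt2 were -4.44 ± 0.96, adjusted p = 0.00179 in control, -3.59 ± 0.92, adjusted p = 0.00521 at 30 min and -2.16 ± 0.81, adjusted p = 0.0816 at 24 h, and without the library labelled KO 24 h replicate 4 the last was -4.13 (adjusted p = 0.00158). Dmrt3, which is known from cortical and spinal patterning, was called lower at 30 min with 12 counts in KO and 82 in WT (-2.44 ± 0.83, adjusted p = 0.0313), a call lost without KO 30 min replicate 2 or 3 or WT 30 min replicate 1, 2 or 3 (adjusted p 0.0515 to 0.069), and without KO replicate 4 and KO 30 min replicate 3 (adjusted p = 0.0856).

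Among factors higher in KO, Dlx6 is a homeobox gene of GABAergic interneurons. It had 8.45, 12.8, 13.8 and 13.2 CPM in KO control cultures, against 4.3, 4.11, 4.29 and 8.56 CPM in WT control cultures. At 30 min, Dlx6 had 8.56, 12.4, 20.8 and 12.3 CPM in KO cultures, against 3.21, 3.35, 4.99 and 9.44 CPM in WT cultures. At 24 h, Dlx6 had 9.11, 12.3, 8.28 and 6.57 CPM in KO cultures, against 1.78, 3.42, 3.13 and 7.18 CPM in WT cultures. WT replicate 4 was the highest WT library in each condition and overlapped the KO range. For Dlx6, log2 fold changes were 1.18 ± 0.38, adjusted p = 0.0291 in control, 1.36 ± 0.38, adjusted p = 0.00982 at 30 min and 1.22 ± 0.38, adjusted p = 0.0363 at 24 h. The control call was lost without KO control replicate 2, 3 or 4 or WT control replicate 1, 2 or 3 (adjusted p 0.06 to 0.0869), the 24 h call without KO 24 h replicate 1, 2 or 3 or WT 24 h replicate 1, 2 or 3 (adjusted p 0.0663 to 0.131), and the 30 min call without KO replicate 4 and KO 30 min replicate 3 (adjusted p = 0.0976).

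The other Dlx genes were not called. Dlx1 had 67.1, 87.1, 85.2 and 97.3 CPM in KO control cultures, against 46.4, 33.9, 37.3 and 119 CPM in WT control cultures, so that 3 WT cultures lay below the KO range and WT replicate 4 above it, and its log2 fold change was 0.51 ± 0.42, adjusted p = 0.433. Dlx2 and Dlx5 had log2 fold changes of 0.57 and 0.82 in control, and WT replicate 4 was again the highest WT library. Dlx6os1, which overlaps Dlx6 on the other strand, was higher in KO in control (1.21 ± 0.41, adjusted p = 0.0355) and at 30 min (1.23 ± 0.40, adjusted p = 0.0252). The sources used here do not give the strand setting of the counting, so reads of Dlx6 and Dlx6os1 may not be told apart, and the same holds for Lhx1 and Lhx1os, which was lower in control (-1.95 ± 0.65, adjusted p = 0.0352) and at 30 min (-2.91 ± 0.77, adjusted p = 0.00654).

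Tbx2, a T-box repressor, was at or near the limit of detection in WT. It had 0.613, 0.539, 1.22 and 0.481 CPM in KO control cultures, against 0.18, 0.044, 0.058 and 0.0471 CPM in WT control cultures. At 30 min, Tbx2 had 0.895, 0.745, 0.309 and 1.35 CPM in KO cultures, against 0.0443, 0.063, 0.247 and 0.126 CPM in WT cultures. At 24 h, Tbx2 had 1.88, 2.4, 3.33 and 0.719 CPM in KO cultures, against 0.212, 0.153, 0.601 and 0.0878 CPM in WT cultures. Every KO library was above every WT library in each condition, with log2 fold changes of 3.12 ± 0.70, adjusted p = 0.00238 in control, 2.80 ± 0.65, adjusted p = 0.00256 at 30 min and 2.97 ± 0.61, adjusted p = 0.00277 at 24 h. In control this rests on 106 counts in KO and 12 in WT, a ratio of 8.84 (95% interval 4.85 to 17.6, counting error only). Tbx18 at 24 h and Tbx20 at 30 min were called on 38 and 22 counts in KO and 2 each in WT. Those ratios, 15.8 and 14, have 95% intervals of 4.08 to 135 and 3.45 to 123, and both calls were lost in most fits that left out 1 library. Tbx20 was also lost without KO replicate 4 and KO 30 min replicate 3 (adjusted p = 0.132).

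Pax1, a paired-box factor known from the axial skeleton, had 7.86, 3.17, 5.78 and 2.41 CPM in KO control cultures, against 0.18, 0.572, 2 and 1.03 CPM in WT control cultures. At 30 min, Pax1 had 5.37, 3.42, 4.12 and 2.62 CPM in KO cultures, against 0.708, 0.787, 1.88 and 0.588 CPM in WT cultures. The groups did not overlap, and the log2 fold changes were 2.35 ± 0.52, adjusted p = 0.00209 and 1.99 ± 0.51, adjusted p = 0.00522. At 24 h, Pax1 had 5.36, 3.5, 4.49 and 3.59 CPM in KO cultures, against 2.18, 2.5, 5.06 and 1.62 CPM in WT cultures, where the groups overlapped (0.58 ± 0.48, adjusted p = 0.494). Sim1, a factor of hypothalamic neurons, had 1.46, 1.59, 1.5 and 0.866 CPM in KO control cultures, against 0.301, 0.308, 0.638 and 0.0941 CPM in WT control cultures. At 30 min, Sim1 had 1.269, 1.235, 2.473 and 5.195 CPM in KO cultures, against 0.08852, 0.2203, 0.3455 and 0.04203 CPM in WT cultures. The highest values were those of KO 30 min replicates 3 and 4. Sim1 was higher in control (2.04 ± 0.61, adjusted p = 0.0194) and at 30 min (3.83 ± 0.65, adjusted p = 0.000138). The 30 min call held in all alternatives tried, with log2 fold changes down to 2.84, and Sim1 was not called at 24 h. The control call was lost without WT control replicate 1, 2 or 4 (adjusted p 0.0513 to 0.0662). Pax5, a midbrain and hindbrain factor, was higher at 30 min (2.15 ± 0.56, adjusted p = 0.00586). That call was lost when the 30 min groups were fitted alone. Pax6, which marks dorsal progenitors, was not called, at -0.35 in control.

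**Figure D4:**
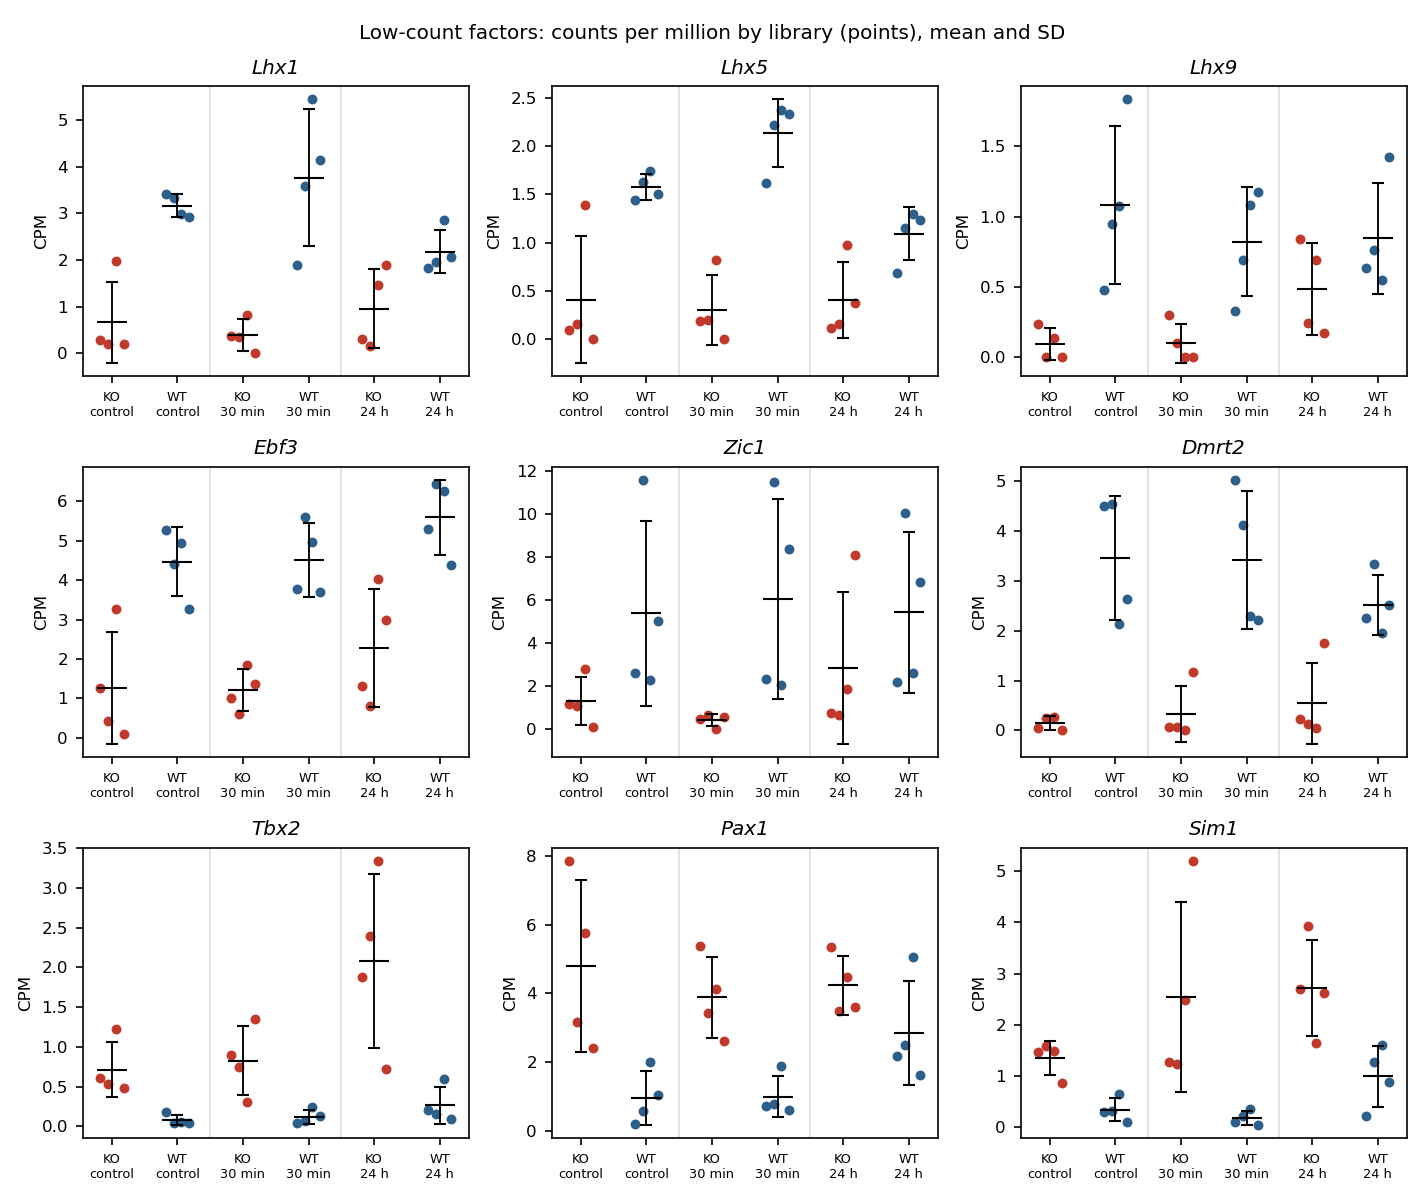
CPM of 9 low-count factors in every library (points), with mean and SD of 4 libraries, for KO (red) and WT (blue) in control, at 30 min and at 24 h of BDNF. Lhx1, Lhx5, Lhx9, Ebf3, Zic1 and Dmrt2 are lower in most KO libraries, and Tbx2, Pax1 and Sim1 are higher in KO in control and at 30 min.

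Summed over all 118 factors, KO libraries held less of this RNA. Such a sum rests mostly on a few abundant factors and does not show a fall across the factors. In control, 36 of the 59 tested factors had a negative log2 fold change and 23 a positive one. The sum was 907 to 1116 CPM in KO control, 857 to 1110 CPM in KO 30 min and 943 to 1152 CPM in KO 24 h libraries. It was 1410 to 1544 CPM in WT control, 1395 to 1518 CPM in WT 30 min and 1311 to 1359 CPM in WT 24 h libraries.

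After 30 min of BDNF, none of the 59 factors was called in either genotype by edgeR. In KO, 1 factor had an unadjusted p under 0.05, and in WT 0 did, and DESeq2 also called 0 in each. Of all genes tested, 0.125% were called in KO and 0.37% in WT. Without KO replicate 4 and KO 30 min replicate 3, 0 factors were called in either genotype, against 0.109% of all genes in KO and 0.506% in WT. The difference between the genotypes' 30 min responses was called for 0 factors, against 0.0477% of all genes, with 1 factor at an unadjusted p under 0.05 and 0 called by DESeq2. Without those libraries that difference was also called for 0 factors, against 0.046% of all genes.

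After 24 h of BDNF, 1 factor was called higher and 1 lower in KO, against 5.61% of all genes, and 5 higher and 4 lower in WT, against 18.7% of all genes. With the culture as a replicate block, which pairs libraries of the same culture, 3 were called higher and 2 lower in KO, against 16.9% of all genes, and 8 higher and 6 lower in WT, against 31.6%. The median log2 fold change was 0.14 in KO, with Ebf2 (no count in either group) left out, and 0.01 in WT, against -0.03 and -0.01 for all genes. The KO 24 h libraries include the one labelled replicate 4, described above. Without KO replicate 4 and KO 30 min replicate 3, 1 factor was called higher and 2 lower in KO, against 9.43% of all genes. In the same fit 8 were higher and 6 lower in WT, against 32.0%.

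Foxp4, a forkhead repressor related to Foxp1, fell in both genotypes. It had 17.2, 14.7, 20.2 and 19 CPM in KO cultures at 24 h, against 35.4, 32, 30.5 and 23.9 CPM in KO control cultures. In WT it had 19.7, 25.9, 22.8 and 18.2 CPM in WT cultures at 24 h, against 35.4, 40.9, 51 and 36.1 CPM in WT control cultures. In each genotype every library at 24 h was below every control library, with log2 fold changes of -0.78 ± 0.22, adjusted p = 0.0384 in KO and -0.92 ± 0.22, adjusted p = 0.00464 in WT. Foxn2, another forkhead factor, rose in both. It had 8.82, 9.92, 6.73 and 8.42 CPM in KO cultures at 24 h, against 5.28, 4.47, 6.52 and 3.95 CPM in KO control cultures. In WT it had 10.7, 9.69, 13.4 and 11.9 CPM in WT cultures at 24 h, against 5.59, 4.53, 4.76 and 5.17 CPM in WT control cultures. Here too the groups did not overlap, and the log2 fold changes were 0.74 ± 0.22, adjusted p = 0.0435 in KO and 1.19 ± 0.22, adjusted p = 0.000424 in WT. Both KO calls were near the threshold: Foxp4 was lost without KO 24 h replicate 1, 2, 3 or 4 or KO control replicate 1, 2 or 3 (adjusted p 0.0547 to 0.135), and Foxn2 without KO 24 h replicate 1, 2 or 4 or KO control replicate 1, 2 or 4 (adjusted p 0.0599 to 0.138).

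Emx1, lower in KO before BDNF, was called lower after 24 h in WT. Emx1 had 4.51, 10.3, 8.36 and 6.92 CPM in WT cultures at 24 h, against 15.4, 19.3, 29.4 and 16 CPM in WT control cultures, with no overlap (-1.41 ± 0.29, adjusted p = 0.00117). In KO its log2 fold change was -0.55 ± 0.29, adjusted p = 0.311. Ebf4 fell in WT (-0.81 ± 0.21, adjusted p = 0.00766) and had a log2 fold change of -0.60 ± 0.20, adjusted p = 0.0865 in KO, where the block fit called it (adjusted p = 0.00376).

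Pax5 rose in WT, with 1.06, 1.5, 1.4 and 0.878 CPM in WT cultures at 24 h, against 0.0601, 0.33, 0.174 and 0.0941 CPM in WT control cultures (2.83 ± 0.55, adjusted p = 0.000736). In KO Pax5 was at 1.61 ± 0.50, adjusted p = 0.0623, and the block fit called it (adjusted p = 0.00728). Pax1 rose in WT (1.58 ± 0.51, adjusted p = 0.032), lost without WT 24 h replicate 2 or 3 or WT control replicate 1, 2 or 4 (adjusted p 0.0517 to 0.165), and was at -0.19 ± 0.47, adjusted p = 0.887 in KO. Foxf2 and Dmrt1 were called higher in WT on few counts, with 89 counts at 24 h and 14 in control for Foxf2 and 56 and 4 for Dmrt1. Both calls were lost in most fits that left out 1 library.

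**Figure D5:**
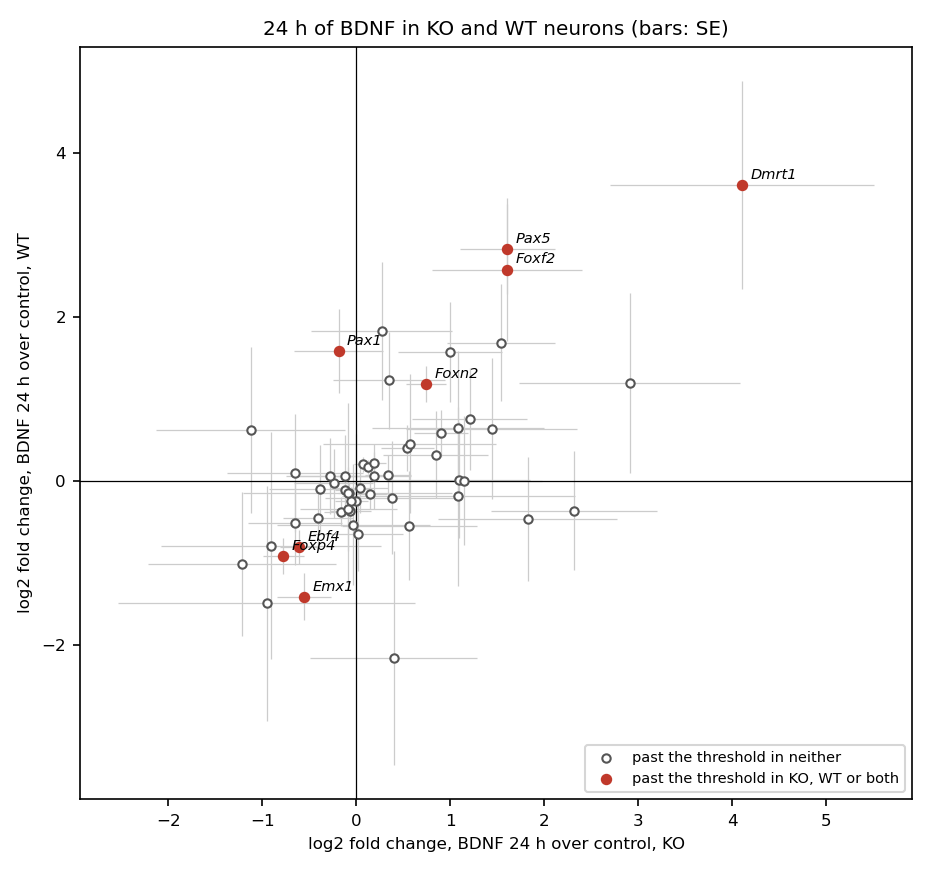
Log2 fold change at 24 h of BDNF over control in KO (x axis) and WT (y axis) for the tested factors (points; bars, standard errors; filled and named, called in KO, WT or both). Foxp4 and Foxn2 were called in both genotypes, and the fit without the culture block, which is plotted, called no difference between the genotypes' responses.

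The difference between the genotypes' 24 h responses was called for 0 factors by edgeR and 0 by DESeq2, against 0.0358% of all genes. Unadjusted p-values under 0.05 were found for 3: Lhx9 (2.67 ± 1.14, adjusted p = 0.818, KO minus WT), Emx1 (0.86 ± 0.40, adjusted p = 0.874) and Pax1 (-1.77 ± 0.69, adjusted p = 0.74). With the culture as a replicate block, Pax1 was called (-1.76, adjusted p = 0.0342), against 1.78% of all genes. Emx1 was not called in the block fit either (0.90, adjusted p = 0.151), so its response, called in WT and not in KO, was not shown to differ between the genotypes. Without KO replicate 4 and KO 30 min replicate 3, the 24 h difference was called for 0 factors, against 0.638% of all genes.

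The partners of these factors were counted over 4 lists of genes. Of all genes tested, 21.4% were called between KO and WT in control, 28.4% at 30 min and 13.3% at 24 h. Of 10 tested cofactors of LIM homeodomain proteins, 1 was higher and 5 lower in KO control cultures, 1 higher and 7 lower at 30 min, and 1 higher and 5 lower at 24 h. The LDB adaptor Ldb2 had 13.3 ± 3.27 CPM in KO and 89.9 ± 7.14 CPM in WT control cultures (-2.75 ± 0.39, adjusted p = 3.41e-05), and Ssbp2, which stabilises LDB proteins, had 89.8 ± 12.2 CPM in KO and 244 ± 36.5 CPM in WT (-1.44 ± 0.23, adjusted p = 0.00012). Both also fell at 24 h of BDNF in WT (-1.25 ± 0.37, adjusted p = 0.0201 for Ldb2 and -1.12 ± 0.23, adjusted p = 0.00139 for Ssbp2). Of 12 tested cofactors of Sine oculis and Pax proteins and Groucho corepressors, 1 was higher and 3 lower in KO control cultures, and the Groucho protein Tle4 fell most (-2.18 ± 0.39, adjusted p = 0.000348). Of 4 tested partners of Meis and Pbx (Pknox1, Pknox2, Tgif1 and Tgif2), Tgif1 was higher in KO at 30 min (1.43 ± 0.50, adjusted p = 0.0363) and Pknox2 at 24 h (0.55 ± 0.12, adjusted p = 0.00302), and Hox genes had too few counts to test.

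Of 27 tested other forebrain patterning factors, 4 were higher and 5 lower in KO control cultures, where 21.4% of all genes tested were called. The lower ones included Barhl2 (-2.61 ± 0.78, adjusted p = 0.0192), Tbr1 (-1.88 ± 0.30, adjusted p = 0.000112), Tshz2 (-2.18 ± 0.60, adjusted p = 0.0114) and Tshz3 (-1.53 ± 0.14, adjusted p = 3.42e-07), and the higher ones Sox3 (1.90 ± 0.40, adjusted p = 0.00154) and Neurog2 (1.88 ± 0.45, adjusted p = 0.00422). Of the symbols set apart, Foxp2, a forkhead factor of deep-layer neurons, was lower in KO in all 3 conditions (-2.64, -3.27 and -2.03). Lhx6, which acts in interneurons of the medial ganglionic eminence, was higher in all 3 (1.27, 1.22 and 0.85), and Lhx2 was called in none of them.

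Markers of cell types were also called between the genotypes, in directions that varied by list. Of all genes tested, 21.4% were called in control, 28.4% at 30 min and 13.3% at 24 h. Of 6 glutamatergic markers, 5 were lower in KO control cultures (Slc17a7, Neurod2, Neurod6, Tbr1 and Bcl11b), and their summed level was 538 to 623 CPM in KO and 802 to 1150 CPM in WT. Of 6 GABAergic markers, 4 were higher (Gad1, Gad2, Slc32a1 and Npy), with sums of 2130 to 2920 CPM in KO and 967 to 1930 CPM in WT. Of 6 astrocyte markers, 4 were lower at 30 min (sums of 11 to 28.3 CPM in KO and 31.0 to 85.4 CPM in WT), and edgeR called none in control (sums of 15.9 to 47.6 CPM in KO and 28.6 to 91.3 CPM in WT) or at 24 h. Unadjusted p-values under 0.05 were found for 1 astrocyte marker in control and 2 at 24 h. Of 6 striatal markers, 2 were higher and 2 lower in KO control cultures, with sums of 181 to 230 CPM in KO and 48.3 to 63.2 CPM in WT. The median log2 fold change of these markers was -0.66, so the higher sum in KO does not describe the list as a whole. Among them, Drd1 (-0.69 ± 0.14, adjusted p = 0.00116) and Ppp1r1b (-1.37 ± 0.46, adjusted p = 0.0353) were lower in KO control cultures and Rarb was higher (0.73 ± 0.24, adjusted p = 0.0333). In bulk samples, fewer cells of a type and less RNA per cell cannot be told apart, and the part of cell makeup in the results above was not tested.

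The remaining lists were low. In control, sums were 17.8 to 36.6 CPM in KO and 26.9 to 36.5 CPM in WT for the oligodendrocyte lineage, 9.1 to 33.4 CPM in KO and 29.0 to 47.4 CPM in WT for fibroblasts and meninges, and 10.7 to 17.7 CPM in KO and 6.2 to 21.1 CPM in WT for cycling progenitors. Microglial markers summed to at most 4.62 CPM in KO and 1.25 CPM in WT, with Csf1r called higher, and endothelial markers to 1.6 to 3.67 CPM in KO and 1.28 to 2.0 CPM in WT. A list of Cajal-Retzius genes, a type of early cortical neuron, was added after the values of Lhx1, Lhx5, Ebf2 and Zic1 were seen. Of its 6 genes, Trp73 was lower in KO control cultures (-2.16 ± 0.70, adjusted p = 0.0299) and the other 5, Reln among them (0.46 ± 0.47, adjusted p = 0.544), were not called.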

How the data were processed

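Polyadenylated RNA of 24 libraries was prepared with a stranded TruSeq mRNA kit, per the labels' protocols. The authors deposited raw counts of reads per gene, not normalised. The submitters' processing notes name STAR 2.7.9a and the mm10 genome, and also edgeR 3.40.2, limma 3.54.2 and DESeq2 1.38.3. The sources used here do not give the counting program or its strand setting. Gene symbols came from GENCODE by gene ID for 45229 of 45792 genes (98.8%; the others held 0.066% of counts).

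Counts were fitted with edgeR 4.0.16 (R 4.3.3; glmQLFit and glmQLFTest; TMM factors 0.824 to 1.07; filterByExpr; 1 mean per group over 24 libraries, 18 residual degrees of freedom), with Benjamini-Hochberg adjustment over 16777 genes, and contrasts for KO over WT, BDNF over control and their difference. The fit was also run on simulated counts, drawn independently with the same spread for every gene. That simulation had no shared cultures and placed no changes in low-count genes, so it does not test the fit for those. DESeq2 1.42.0 was an alternative. The members, lists and tests were chosen with earlier results of these data known. Values in every library are given for called members at 1 CPM or more (up to 12 a contrast, by fold change) and for 10 preset members. Ebf2, Foxk1, Foxf2, Dmrt1, Dmrt3, Tbx18, Tbx20, the antisense genes and the named markers fall outside this rule and were chosen after their values were seen. Of each partner list, up to 4 called genes a contrast were eligible to be named. Some factors and markers are not reported here; counts over all factors include them.

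Library descriptions carry a culture code shared by the 3 conditions of a replicate within a genotype. Deviations from group means correlated at 0.046 to 0.46 within a culture, above 0.1 in 22 of 24 pairs, and at -0.12 to 0.054 in 36 pairs that share only a number between genotypes. The code therefore pairs libraries within a genotype. The main fit had no culture term and took the libraries of a culture as independent. Floors (3 counts) and 95% intervals cover counting error only, with each count taken as independent. For many low-count factors nearly all counts were even, such as 6, 2, 2 and 2 for Tbx2 in WT control libraries. Those of Ebf2 in the same libraries were 19, 10, 9 and 5. The sources used here do not say whether both reads of a pair were counted. If they were, the intervals are too narrow and the floors too low.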

Additional observations from a re-analysis of the deposited data

Results flagged for a closer look

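In 144 groups of 4 libraries (24 named factors in 6 groups), 15 held a library whose gap to the others exceeded Dixon's 95% critical value. Chance alone flags about 1 in 20 groups where values are independent and normally distributed. These groups share libraries and cultures, and some rest on few counts, so the 15 cannot be set against that rate. The library labelled KO 24 h replicate 4 was far above the other KO 24 h libraries for 4 factors. It had 106 CPM of Foxp1 (38.7 to 49.8 CPM), 8.11 CPM of Zic1 (0.644 to 1.87 CPM), 1.98 CPM of Otx1 (0.402 to 0.651 CPM) and 1.76 CPM of Dmrt2 (0.0575 to 0.23 CPM). In the same library Hist2h2be was at 21.2 CPM, below the other KO libraries and above every WT library, and Xist (145 CPM) and the Y-linked Ddx3y (66.3 CPM) were both present. The other 2 libraries with its culture code had 0.193 and 0.904 CPM of Ddx3y and 423 and 426 CPM of Xist. Whether the library holds a mixture or another culture, and what part this has in the factors' values, was not tested.

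KO 30 min replicate 4, which carries the same culture code, had 1.17 CPM of Dmrt2 (others 0 to 0.0746 CPM). WT replicate 4 was high for Dlx1 in control (119 CPM, others 33.9 to 46.4 CPM) and at 30 min (131 CPM, others 33.7 to 45.9 CPM), and for Dlx6 in control (8.56 CPM, others 4.11 to 4.3 CPM). KO control replicate 3 was high for Lhx1 (1.97 CPM, others 0.19 to 0.283 CPM) and Lhx5 (1.39 CPM, others 0 to 0.159 CPM). KO 30 min replicate 3, the library with the fewest counts, was high for Otx1 (1.96 CPM, others 0.452 to 0.634 CPM). KO control replicate 2 was high for Pbx3 (7.68 CPM, others 1.75 to 2.55 CPM). In WT, replicate 3 was high for Pax1 at 30 min (1.88 CPM, others 0.588 to 0.787 CPM), control replicate 1 for Tbx2 (0.18 CPM, others 0.044 to 0.058 CPM), and control replicate 2 was low for Pbx4 (4.62 CPM, others 6.49 to 6.82 CPM).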

How the results depend on the processing

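No called factor changed direction: of 953 values under alternatives, 751 stayed past the threshold, 202 did not and 0 reversed. Of 60 calls, 6 held in every alternative (among them Emx1 in control and at 30 min, Lhx9 in control, Sim1 at 30 min), and 25 were lost solely in the fit of cultures with control number 2. That fit, which has fewer libraries, called 3 factors in KO over WT control, 4 at 30 min, and 0 at 24 h, in the 24 h response of KO and in that of WT. Without KO replicate 4 and KO 30 min replicate 3, KO over WT called 15 at 30 min and 22 at 24 h, and the WT 24 h response 14. The replicate block called 14 in the WT 24 h response, 5 in that of KO and 1 in the difference at 24 h, and moved no other count by over 1.5 times; for KO over WT the block is the replicate number, which does not pair cultures. The compared groups alone called 14 in the WT 24 h response and 1 in that of KO. In the KO 24 h response, no filter on low counts called 1 and DESeq2 6. For KO over WT at 30 min, the compared groups alone called 16 factors (17.4% of all genes), against 23 (28.4%) in the main fit. Among calls named above, fits of the compared groups alone lost Pax5, Lhx9, Foxk1 and Ebf4 at 30 min and Ebf3 in control. They also lost Otx1 in KO over WT at 24 h, and the 24 h responses of Pax1 in WT and Foxn2 in KO. Leaving out 1 library gave 10 to 16 in KO over WT control, 20 to 24 at 30 min, 4 to 13 at 24 h, 5 to 9 in the WT 24 h response and 0 to 1 in that of KO. Factors below 1 CPM rest on few counts a group, which limits what their folds can show.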
